A study of Mus musculus with 16 samples.

Results

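The matrix metalloproteinases (MMPs) and their tissue inhibitors (TIMPs) were examined as transcripts in cells of the mouse knee joint before and after injury, with and without Trem2. The members are the 9 genes Mmp2, Mmp3, Mmp13, Mmp14, Mmp19, Mmp23, Timp1, Timp2 and Timp3, chosen by name from the 13733 genes of the expression table. All 9 passed the filter on low values that left 13173 genes for testing. The data are bulk RNA-seq of 16 libraries, 4 mice in each of 4 groups. WT D0 were uninjured C57Bl/6J male mice and WT D7 were mice of the same strain 7 days after a tibial compression overload that tears the anterior cruciate ligament, which leads to post-traumatic osteoarthritis. Trem2-/- D0 and Trem2-/- D7 were the corresponding mice carrying the C57BL/6J-Trem2em2Adiuj/J knockout in every cell, so that loss of Trem2, a surface receptor of macrophages and other myeloid cells, was neither limited to the joint nor timed to the injury. The 4 groups share the C57Bl/6J background and male sex, and injury was given at 10 weeks of age. The labels name cells from knee joints, but one label gives an age of 16 weeks and the labelled extraction text describes diabetic mice, homogenized joints and another library kit, so only genotype and injury state, on which the labels and the methods say the same, were used for grouping. Whether the cells were enriched or depleted for CD45, the surface marker of leukocytes, is not stated.

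MMPs are zinc-dependent proteases that cut collagens, proteoglycans and other matrix proteins. They are made as inactive proenzymes and are switched on by removal of a propeptide, and TIMPs block the active site of the mature enzymes. In the joint, fibroblasts of the synovial lining, chondrocytes, osteoblasts and leukocytes are all known sources, and an excess of protease over inhibitor is a classical feature of osteoarthritic cartilage. Transcript levels say nothing of how much of each enzyme was activated or inhibited.

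Levels are given as CPM, reads relative to the total of their library after TMM scaling by the authors. Each library held 11567073 to 32867818 reads over all listed genes, and 3 reads corresponded to between 0.101 and 0.250 CPM, a limit that covers counting error only. The member values lie well above it. Trem2 itself was at 10.7 to 22.5 CPM at WT D7 and at 3.42 to 4.84 CPM at Trem2-/- D7, with 2.51 to 5.61 CPM at WT D0 and 0.948 to 2.68 CPM at Trem2-/- D0, so transcripts of the targeted gene were lower but still counted in the knockout. Markers of the labelled tissue were present, with mean levels at WT D0 of 4880 CPM for Prg4 of the synovial lining and articular surface, 3466 CPM for Col2a1 of cartilage and 514 CPM for Ptprc, which encodes CD45. Replicate 4 of WT D0 stood apart from the other uninjured WT mice, with a summed level of 11 synovial fibroblast markers of 43390 CPM against 10150 to 23270 CPM. Results that rest on it are given with and without it, and without it the same 6 members were called after injury in WT as with all libraries.

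Injury raised most members in both genotypes. Differences were tested on the log2(CPM + 1) scale with limma, and a gene was called when its unadjusted p was under 0.05 and its log2 fold change beyond 0.32 in either direction, the rule of the study. In WT mice 6 of the 9 members were called higher after injury, namely Mmp2, Mmp14, Mmp19, Mmp23, Timp1 and Timp2, and 0 were called lower. Of all genes tested 19.3% were called higher and 18.2% lower. In Trem2-/- mice 8 of the 9 were called higher, all but Timp3, where 26.5% of all genes were called higher and 27.9% lower. With Benjamini-Hochberg adjustment over all genes limma called 5 members in WT (28.5% of all genes) and 7 in Trem2-/- mice (53.2% of all genes). The 4 D7 libraries did not overlap the 4 D0 libraries for 3 members in WT (22.2% of all genes) and for 7 members in Trem2-/- mice (52.4% of all genes). The median log2 fold change of the 9 members was 1.63 in WT and 1.92 in Trem2-/- mice, against -0.04 over all genes tested in each genotype. For single members the exact two-sided permutation test over 70 assignments of 8 mice cannot go below 0.0286. In bulk RNA fewer cells of a type and less RNA per cell cannot be told apart.

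**Figure D1:**
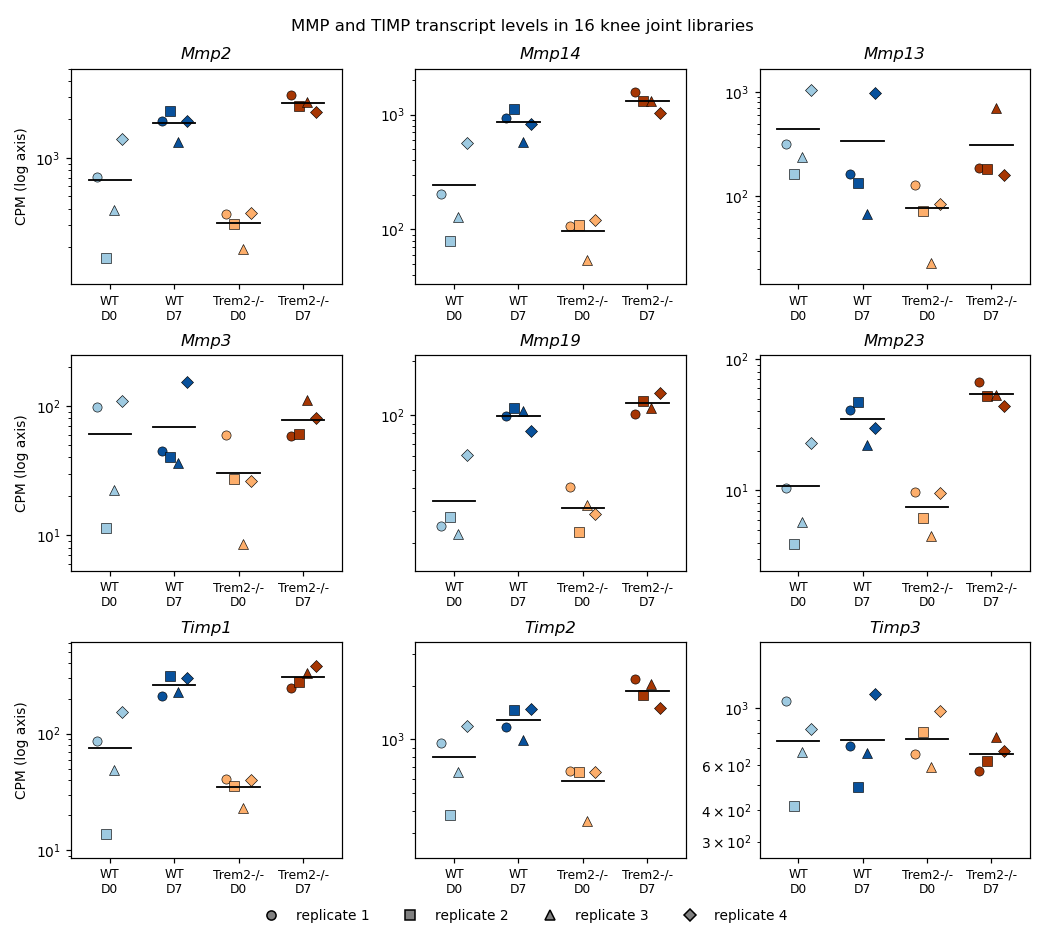
CPM on a log axis for each of the 9 members, 1 panel a gene, with the 4 groups side by side, 1 point a mouse with its symbol for the replicate number, and a line at the group mean. Mmp2, Mmp14, Mmp19, Mmp23 and Timp1 are higher at D7 in both genotypes, Timp3 lies between 415 and 1134 CPM throughout, and Mmp13 shows 1 library far above the other 3 at WT D0, WT D7 and Trem2-/- D7.

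Mmp2 encodes gelatinase A, which degrades denatured collagen and basement membrane collagen (chr8:92827291-92853420, plus strand, GRCm38). Its level was 714, 165, 393 and 1398 CPM in the WT D0 mice and 1944, 2327, 1339 and 1952 CPM in the WT D7 mice. The groups overlapped only because WT D0 replicate 4 lay just above the lowest WT D7 library. In Trem2-/- mice Mmp2 was at 364, 301, 193 and 372 CPM at D0 and at 3131, 2528, 2753 and 2275 CPM at D7, with no overlap. It rose by 1.87 on the log2 scale in WT (SE 0.46, limma adjusted p = 0.00898, exact permutation p = 0.0571) and by 3.15 in Trem2-/- mice (SE 0.46, limma adjusted p = 7.11e-05, exact permutation p = 0.0286). In fold terms these were 3.67-fold and 8.88-fold rises.

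Mmp14 encodes a membrane-anchored MMP of the cell surface that cleaves fibrillar collagen and activates pro-MMP2 (chr14:54431612-54445364, plus strand). It was at 202, 78.6, 127 and 562 CPM at WT D0 and at 932, 1110, 574 and 821 CPM at WT D7. All 4 injured WT libraries lay above all 4 uninjured ones, with WT D0 replicate 4 close below WT D7 replicate 3. At Trem2-/- D0 it was at 108, 108, 53.8 and 122 CPM and at Trem2-/- D7 at 1575, 1324, 1321 and 1036 CPM. This was the largest rise among the 9 members in Trem2-/- mice, by 3.78 on the log2 scale or 13.8-fold (SE 0.44, limma adjusted p = 2.14e-05), against 2.18 or 4.52-fold in WT (SE 0.44, limma adjusted p = 0.00356).

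Timp2 encodes the inhibitor that also bridges pro-MMP2 to the MMP14 protein at the cell surface during activation (chr11:118301069-118355740, minus strand). Its level was 956, 379, 654 and 1185 CPM at WT D0 and 1168, 1468, 996 and 1488 CPM at WT D7, so the WT groups overlapped. For Trem2-/- mice it was 665, 656, 349 and 660.3 CPM at D0 and 2183, 1778, 2035 and 1502 CPM at D7, fully apart. The rise was 1.72 on the log2 scale in Trem2-/- mice (SE 0.31, limma adjusted p = 0.000333). In WT it was 0.79 (SE 0.31, limma p = 0.0204, adjusted p = 0.0634, exact permutation p = 0.0857), and the call was lost without WT D7 replicate 2 (0.72), WT D7 replicate 4 (0.71) or WT D0 replicate 2 (0.48).

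Across these partners, the level of Mmp14 relative to Timp2, as a ratio of CPM, was 0.195 to 0.475 at WT D0 and 0.552 to 0.797 at WT D7. It was 0.154 to 0.184 at Trem2-/- D0 and 0.649 to 0.745 at Trem2-/- D7. The D7 range lay above the D0 range in each genotype.

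Mmp19, a secreted MMP with broad matrix substrates (chr10:128790910-128800824, plus strand), showed the smallest spread at D7, with a coefficient of variation of 12.5% in WT and 11.6% in Trem2-/- mice. It was at 24.7, 27.6, 22.4 and 60.9 CPM at WT D0 and at 99.1, 109.9, 106 and 81.8 CPM at WT D7. At Trem2-/- D0 it was at 40.3, 22.8, 32.1 and 28.8 CPM, and at Trem2-/- D7 at 102, 119.8, 110.5 and 134 CPM. The D7 and D0 libraries did not overlap in either genotype, and Mmp19 rose by 1.63 in WT (SE 0.25, limma adjusted p = 0.000821) and by 1.90 in Trem2-/- mice (SE 0.25, limma adjusted p = 3.63e-05) on the log2 scale. In the GENCODE M21 annotation 28.3% of its exon bases are shared with Tmem198b and Gm47093 on the other strand. Since no source says whether counting used strand, reads of these genes could not be told apart.

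Mmp23 encodes a small membrane-bound MMP without the hemopexin domain of most relatives (chr4:155650655-155653384, minus strand). It was the lowest member in reads per length in every group. Its level was 10.4, 3.92, 5.79 and 22.9 CPM at WT D0 and 40.6, 47.2, 22.0 and 29.6 CPM at WT D7, with WT D0 replicate 4 just above the lowest WT D7 library. At Trem2-/- D0 it was 9.74, 6.13, 4.53 and 9.5 CPM and at Trem2-/- D7 66.4, 52.1, 53.0 and 44.0 CPM, without overlap. The rise was 1.82 on the log2 scale in WT (SE 0.39, limma adjusted p = 0.00449) and 2.73 in Trem2-/- mice (SE 0.39, limma adjusted p = 6.11e-05).

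Timp1, the inducible secreted inhibitor of most MMPs (chrX:20870166-20874735, plus strand, within an intron of Syn1), rose most among the inhibitors. It was at 86.8, 13.8, 48.9 and 154 CPM at WT D0 and at 212, 313, 226 and 299.9 CPM at WT D7. At Trem2-/- D0 its level was 40.5, 35.9, 22.8 and 39.7 CPM, and at Trem2-/- D7 248, 277, 332 and 379 CPM. The D7 libraries lay above the D0 libraries in both genotypes, by 2.21 on the log2 scale or 4.61-fold in WT (SE 0.49, limma adjusted p = 0.00537) and by 3.13 or 8.76-fold in Trem2-/- mice (SE 0.49, limma adjusted p = 0.000117).

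Timp3 was not called in either genotype. Its protein stays bound to the extracellular matrix and also inhibits ADAM17 and the aggrecanases. It was at 1066, 415, 673 and 831 CPM at WT D0, at 714, 491, 668 and 1134 CPM at WT D7, at 659, 810.4, 589.5 and 975 CPM at Trem2-/- D0 and at 568, 624, 774 and 680.1 CPM at Trem2-/- D7, and the 4 groups overlapped. The D7 minus D0 difference was 0.03 on the log2 scale in WT (95% interval -0.57 to 0.62, exact permutation p = 0.914) and -0.18 in Trem2-/- mice (95% interval -0.77 to 0.41, exact permutation p = 0.371). Timp3 (chr10:86300372-86349506, plus strand) lies within Syn3 and shares 21.3% of its exon bases with it on the other strand.

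The collagenase Mmp13 and the stromelysin Mmp3 both lie in the MMP cluster of chromosome 9, with Mmp12 and Mmp1b between them. Mmp12, Mmp8 and Mmp27 of the cluster are also listed in the expression table, and Mmp1b is not. Mmp13 lies at chr9:7272514-7283331 and Mmp3 at chr9:7445822-7455975, both on the plus strand and 162.5 kb apart. Mmp13 cleaves collagen of cartilage and is known from hypertrophic chondrocytes and osteoblasts, and Mmp3 cleaves proteoglycans and fibronectin and activates pro-MMPs. They are the members whose promoters, among the 7 with a RefSeq entry (GRCm38.p6; Mmp2 and Mmp19 had none), hold both the AP-1 motif TGANTCA and the TATA motif TATAAA within 250 bases before to 50 after the start site. Of 32851 mouse promoter windows of that length 7.81% hold the AP-1 letters, 13.6% the TATA letters and 1.54% both, searched on both strands. The RUNX letters TGTGGT, held by 16.8% of windows, occur in Mmp13, Mmp14 and Mmp23, and the SP1 letters GGGCGG, held by 35.7%, in Mmp14, Mmp23, Timp1, Timp2 and Timp3. No match of one motif overlapped a match of another in these windows, and a match is a description of the sequence and not evidence of binding. The 140 bases before the start site are shown for the cluster pair and for Mmp14, the member with the largest rise in Trem2-/- mice, to set their promoter letters side by side, with AP-1, RUNX and TATA letters in capitals (plus strand, 5′ to 3′).
Mmp13, chr9:7272374-7272513: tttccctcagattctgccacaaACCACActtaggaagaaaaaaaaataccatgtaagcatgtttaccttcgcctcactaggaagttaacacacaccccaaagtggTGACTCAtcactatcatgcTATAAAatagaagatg
Mmp3, chr9:7445682-7445821: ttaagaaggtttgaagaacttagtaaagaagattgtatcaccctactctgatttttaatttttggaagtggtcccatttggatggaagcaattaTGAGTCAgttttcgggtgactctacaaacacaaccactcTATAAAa
Mmp14, chr14:54431458-54431597: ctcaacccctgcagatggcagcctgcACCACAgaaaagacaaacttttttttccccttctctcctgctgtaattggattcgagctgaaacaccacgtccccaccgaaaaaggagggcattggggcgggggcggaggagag
In the Mmp13 stretch the RUNX letters are read on the reverse strand (ACCACA) and begin 118 bases before the start site, the AP-1 letters begin 35 bases before it and the TATA letters 16 bases before it. In Mmp3 the AP-1 letters begin 46 bases and the TATA letters 7 bases before the start site. The Mmp14 stretch holds the RUNX letters, also reversed, at 114 bases and neither of the other motifs.

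Mmp13 was the only member whose mean was lower at D7 than at D0 in WT mice. Its coefficient of variation was the highest of the 9 in 3 of the 4 groups (93.2% at WT D0, 128.5% at WT D7 and 85.8% at Trem2-/- D7), while at Trem2-/- D0 that of Mmp3 was higher (69.7% against 56.0%). Its level was 317, 165, 237 and 1059 CPM at WT D0 and 162, 134, 68.2 and 986 CPM at WT D7. Replicate 4 of each WT group was several-fold above its group, and the remaining WT D7 libraries lay below all 4 WT D0 libraries. In Trem2-/- mice Mmp13 was at 127, 71.6, 23.0 and 84.5 CPM at D0 and at 188, 182, 707 and 159.9 CPM at D7, with every injured library above every uninjured one. The change was -0.79 on the log2 scale in WT (SE 0.77, 95% interval -2.43 to 0.86, limma p = 0.325, exact permutation p = 0.371). Without WT D7 replicate 4 it was -1.56 and passed the rule as lower. The fit lacking replicate 4 of WT D0 gave -0.24 and that lacking both gave -1.01, neither called. In Trem2-/- mice Mmp13 rose by 1.92 or 3.79-fold (SE 0.77, limma adjusted p = 0.0475, exact permutation p = 0.0286), and the call was lost without Trem2-/- D7 replicate 3 (1.42) or Trem2-/- D0 replicate 3 (1.44).

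The 3 libraries with outlying Mmp13 were those with the highest sums of their groups for the osteoblast, chondrocyte, synovial fibroblast and osteoclast markers alike. The osteoblast markers (Sp7, Ibsp, Alpl, Phex and Dmp1) summed to 828 CPM in WT D0 replicate 4 against 108 to 447 CPM in the other WT D0 libraries, to 2345 CPM in WT D7 replicate 4 against 854 to 1458 CPM, and to 1722 CPM in Trem2-/- D7 replicate 3 against 487 to 1262 CPM. The 10 chondrocyte markers, led by Col2a1, summed to 14970 CPM, 77870 CPM and 44440 CPM in these libraries, against at most 8709 CPM, 66950 CPM and 31710 CPM in the others of their groups. The fibroblast sums of the same libraries were 43390, 100400 and 116300 CPM against at most 23270, 78870 and 102700 CPM, and the osteoclast sums 354, 505 and 478 CPM against at most 279, 383 and 421 CPM. At Trem2-/- D0 the order differed, since replicate 1 had the highest Mmp13 replicate 2 the highest osteoblast and chondrocyte sums (282 CPM and 4763 CPM) and replicate 4 the highest fibroblast and osteoclast sums (16690 CPM and 211 CPM). The part of these markers in the Mmp13 values was not tested.

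Mmp3 was at 97.2, 11.5, 22.4 and 109 CPM at WT D0 and at 44.5, 40.4, 36.2 and 153 CPM at WT D7, and at 59.5, 27.3, 8.53 and 26.4 CPM at Trem2-/- D0 and 58.8, 60.7, 111 and 80.2 CPM at Trem2-/- D7. The WT groups overlapped throughout and the Trem2-/- groups at 1 library. The difference was 0.44 on the log2 scale in WT (SE 0.68, exact permutation p = 0.629). Among Trem2-/- mice it was 1.56 (SE 0.68, limma p = 0.0365, adjusted p = 0.0651, exact permutation p = 0.0571). That call was lost when any of 5 libraries was left out, Trem2-/- D7 replicate 3 (1.37) or 4 (1.53) or Trem2-/- D0 replicate 2 (1.601), 3 (1.08) or 4 (1.586).

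**Figure D2:**
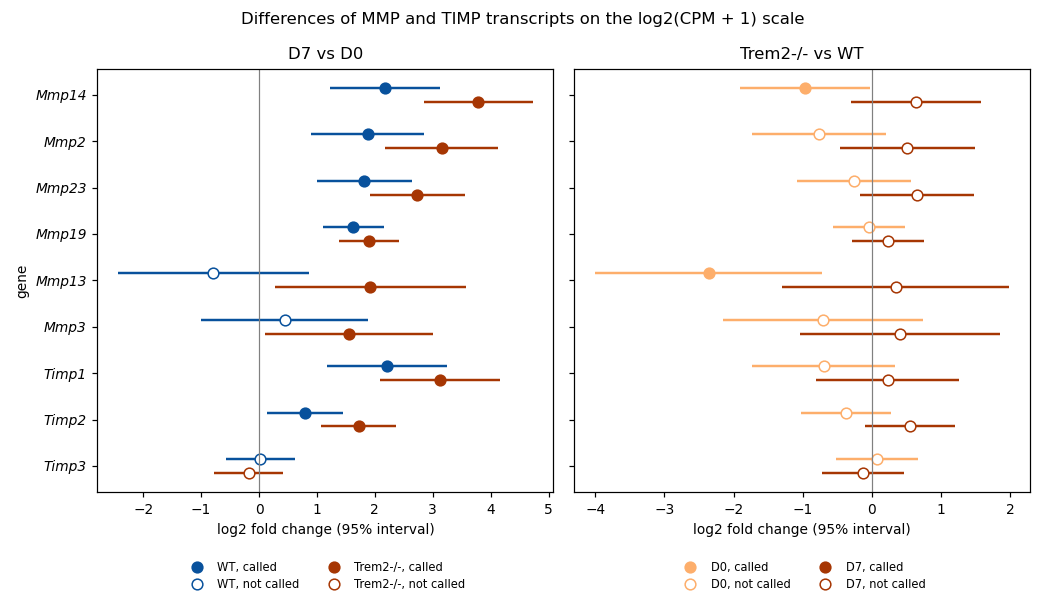
Log2 fold changes of the 9 members on the log2(CPM + 1) scale with their 95% limma intervals, D7 vs D0 in each genotype (left) and Trem2-/- vs WT at each day (right), with filled points for called members. Every Trem2-/- interval on the left lies above 0 except that of Timp3, and on the right only the D0 intervals of Mmp13 and Mmp14 lie off 0.

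Loss of Trem2 was compared next. At D0, 8 of the 9 members had a lower value on the log2 scale in Trem2-/- than in WT mice, and limma called 2 of them lower, Mmp13 and Mmp14, where 1.37% of all genes were called lower and 0.782% higher. The count of 8 rested on WT D0 replicate 4. Without both WT libraries numbered 4, Mmp19 (0.28) and Mmp23 (0.17) were higher in Trem2-/- mice. In that fit Mmp2 was at -0.27, Mmp3 at -0.24, Timp1 at -0.20 and Timp2 at -0.14. No member passed adjustment over all genes (0% of all genes did), although 385 of all genes had an unadjusted p under 0.05 with limma, and edgeR also called no gene after adjustment. Mmp13 was lower in every Trem2-/- D0 library (23.0 to 127 CPM) than in every WT D0 library (165 to 1059 CPM), the only member without overlap, as held for 0.979% of all genes. The difference was -2.36 on the log2 scale, a 5.14-fold lower level (SE 0.77, limma p = 0.00789, adjusted p = 0.9996, exact permutation p = 0.0286). Without both WT libraries numbered 4 it was -1.82 and still called. The summed chondrocyte markers ranged from 982 to 14970 CPM at WT D0 and from 1472 to 4763 CPM at Trem2-/- D0, with 5 of the 10 called lower in Trem2-/- mice, and the osteoblast markers from 108 to 828 CPM and from 115 to 282 CPM, with 2 of 5 called lower. Their part in the difference was not tested.

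Mmp14 was 53.8 to 122 CPM at Trem2-/- D0 and 78.6 to 562 CPM at WT D0, a difference of -0.97 on the log2 scale (SE 0.44, limma p = 0.0447, exact permutation p = 0.2). It rested on single libraries. Leaving out replicate 4 of WT D0 gave -0.43 and leaving out replicate 3 of Trem2-/- D0 gave -0.71, neither called. The call held in 4 of the 16 fits without 1 library, those leaving out replicate 2 or 3 of WT D0, replicate 3 of WT D7 or replicate 4 of Trem2-/- D0, and in the remaining 10 the difference was -1.04 to -0.92 (limma p from 0.0502 to 0.0797).

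At D7, 8 of the 9 members had a higher value on the log2 scale in Trem2-/- than in WT mice, all but Timp3, but limma called 0 of them (p from 0.0903 to 0.660), where 1.18% of all genes were called higher and 4.53% lower. Adjusted over all genes limma called 0%, with 958 genes at an unadjusted p under 0.05, and edgeR also called no member. Timp2 came nearest. Its 4 Trem2-/- D7 libraries (1502 to 2183 CPM) lay above the 4 WT D7 libraries (996 to 1488 CPM), with a difference of 0.55 (95% interval -0.10 to 1.21, limma p = 0.0903, exact permutation p = 0.0286). The libraries of these groups did not overlap for 8.33% of all genes. For Mmp14 the difference was 0.64 (95% interval -0.31 to 1.58), for Mmp23 0.66 (95% interval -0.17 to 1.48) and for Mmp2 0.52 (95% interval -0.46 to 1.49), each with 3 Trem2-/- libraries above every WT library. When only the 8 D7 libraries were fitted, limma called Mmp2, Timp2, Mmp14 and Mmp23 higher in Trem2-/- mice, and calls over all genes rose as well, to 3.58% higher and 6.79% lower. Some leukocyte markers also differed between the injured groups by the same rule. Lower in the knockout were 5 of 6 general leukocyte markers (summed 1197 to 1501 CPM against 1514 to 3335 CPM). So were 4 of 4 B cell (24.7 to 35.9 against 41.1 to 82.1 CPM) and 3 of 8 macrophage markers (379.9 to 445 against 506 to 665 CPM). Of 9 neutrophil markers 0 were called, and their sums overlapped (4091 to 6587 against 4305 to 12860 CPM). Among the others 0 of 11 fibroblast, 0 of 10 chondrocyte and 0 of 5 osteoblast markers were called. The part of these markers in the member values was not tested.

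The change with injury itself was compared between genotypes by an interaction term. It was larger in Trem2-/- than in WT mice for 8 of the 9 members, and limma called 3, Mmp13, Mmp14 and Timp2, where 2.77% of all genes were called higher and 5.02% lower. Adjusted over all genes the same limma fit called 0%, with 1075 genes at an unadjusted p under 0.05, and edgeR called none either. The Mmp13 change was larger by 2.71 on the log2 scale (SE 1.09, limma adjusted p = 0.579), the Mmp14 change by 1.61 (SE 0.63, adjusted p = 0.579) and the Timp2 change by 0.93 (SE 0.43, adjusted p = 0.610), with lower 95% bounds of 0.38, 0.27 and 0.0018. The Mmp14 term stayed called in the 28 alternatives run for the interaction, between 0.79 and 2.01. That of Mmp13 missed the threshold without WT D7 replicate 3 (2.21), WT D0 replicate 4 (2.16), Trem2-/- D7 replicate 3 (2.21) or Trem2-/- D0 replicate 3 (2.22), in edgeR (2.41) and with the fibroblast score as covariate (1.65). The Timp2 term missed it in 14 of the 28, among them 9 of the 16 fits without 1 library (WT D0 replicates 1, 3 and 4, WT D7 replicates 1 and 3, Trem2-/- D0 replicate 3 and Trem2-/- D7 replicates 1, 2 and 3), with values from 0.69 to 0.98, lowest without replicate 4 and highest without replicate 3 of WT D0. The others were a mean of 5 CPM or more (0.93), quantile normalization (0.83), voom (0.898), the fit without both WT libraries numbered 4 (0.77) and the covariate (0.36). Without WT D0 replicate 2 there were 6 members called, adding Mmp2, Timp1 and Mmp23, but calls over all genes also rose, to 8.87% higher and 8.11% lower. Beside these terms, 5 of 6 general leukocyte and 3 of 8 macrophage markers were called lower in the interaction, 1 of 11 fibroblast and 3 of 6 osteoclast markers higher, and their part was not tested.

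Levels of different genes were compared per kilobase of exon. At D7 the order was the same in both genotypes, with Mmp2 first (561 ± 121 CPM per kb, SD, n = 4, in WT and 793 ± 108 in Trem2-/- mice), then Timp2 (329 ± 61.4 and 481 ± 76.8), Timp1 (296 ± 57.6 and 348 ± 65.6), Mmp14 (144 ± 37.7 and 221 ± 36.9), Mmp13, Timp3, Mmp3, Mmp19 and Mmp23. The range of Mmp2 lay above that of Timp2 and the range of Timp1 above that of Mmp14 in both genotypes. Timp2 overlapped Timp1, and Mmp13 overlapped both Mmp14 and Timp3. The ranges of Mmp14 and Timp3 overlapped in WT but not in Trem2-/- mice. At WT D0 the order was Timp2 (204 ± 90.2), Mmp2 (198 ± 159), Mmp13 (166 ± 155), Timp3 (91.6 ± 33.6), Timp1, Mmp14, Mmp3, Mmp19 and Mmp23, and each neighbouring pair overlapped. At Trem2-/- D0 it was Timp2 (149 ± 40.0), Timp3 (93.1 ± 21.0), Mmp2 (91.2 ± 24.4), Timp1, Mmp13, Mmp3, Mmp14, Mmp19 and Mmp23.

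Summed per kilobase, the 6 MMPs were at 140 to 993 CPM per kb at WT D0, 578 to 1206 at WT D7, 90.7 to 222 at Trem2-/- D0 and 1010 to 1418 at Trem2-/- D7. The 3 TIMPs were at 164 to 580, 592 to 859, 188 to 334 and 845 to 991 CPM per kb in the same order. The ratio of the MMP sum to the TIMP sum was 0.811 to 0.907 in 3 WT D0 libraries and 1.71 in replicate 4, and 0.977 to 1.40 at WT D7. The Trem2-/- ratio was 0.484 to 0.747 at D0 and 1.13 to 1.49 at D7, so every injured library lay above every uninjured one. Mmp13 made up 27.6 to 44.2% of the MMP sum at WT D0 and 9.49 to 21.4% at Trem2-/- D0, and Timp1 made up 9.49 to 30.0% of the TIMP sum at WT D0 and 38.1 to 44.6% at WT D7. These are ratios of transcripts and not of proteins, and the sums hold the 9 members only. Mmp8 and Mmp9, which are outside the sums, fell with injury, as did Timp4. Their means went from 758 and 946 CPM at Trem2-/- D0 to 147 and 220 CPM at Trem2-/- D7 for Mmp8 and Mmp9. In WT mice these went from 597 and 713 CPM to 240 and 326 CPM. A ratio over the whole family was not computed.

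**Figure D3:**
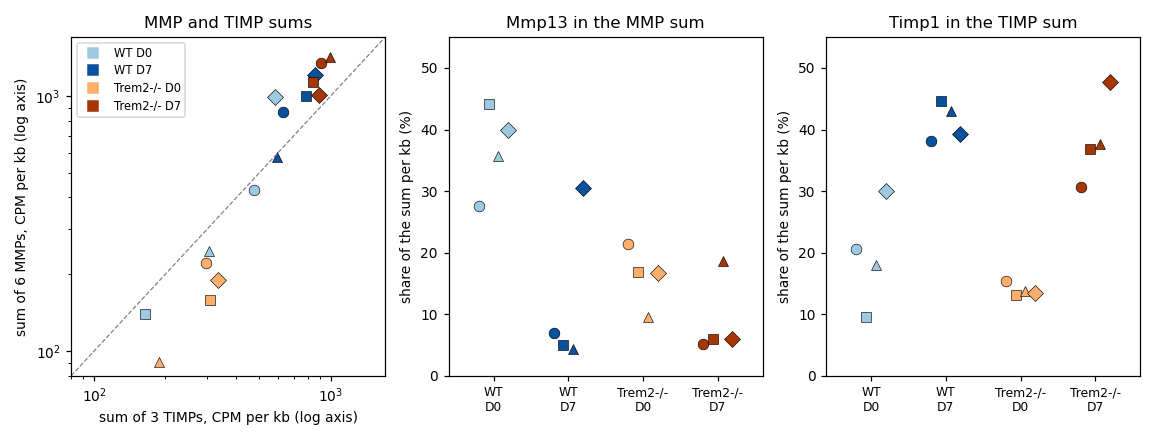
Left, the summed level of the 6 MMPs against that of the 3 TIMPs in CPM per kilobase on log axes, 1 point a library coloured by group with a dashed line of equal sums. Middle and right, the share of Mmp13 in the MMP sum and of Timp1 in the TIMP sum by group, where Timp1 is 30.7 to 47.7% in every D7 library and Mmp13 is 30.6% in 1 WT D7 library against at most 7.03% in the other 3.

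The members were also placed beside the rest of the family, for which 12 of 19 further genes (the other MMPs, Timp4 and Reck) were listed and 11 were tested. In WT mice 5 were called higher and 4 lower at D7, and in Trem2-/- mice 4 and 4, with a median log2 fold change of 0.15 and 0.33. Over all genes tested 19.3% were called higher and 18.2% lower in WT, and 26.5% and 27.9% in Trem2-/- mice. Those that fell were Mmp8, the neutrophil collagenase, Mmp9, the gelatinase stored in neutrophil granules, Mmp25, a membrane-anchored MMP of leukocytes, and Timp4. Mmp8 was at 353, 792, 839 and 404 CPM at WT D0 and 131, 212, 416 and 199 CPM at WT D7, a fall of -1.34 on the log2 scale (limma adjusted p = 0.0211), and fell by 2.25 in Trem2-/- mice (limma adjusted p = 0.000272), where all D7 libraries lay below all D0 libraries. Mmp9 was at 483, 935, 962 and 473 CPM at WT D0 and 178, 301, 520.4 and 306 CPM at WT D7, and fell by 1.14 in WT (limma adjusted p = 0.0340) and by 2.03 in Trem2-/- mice (limma adjusted p = 0.000428). The neutrophil markers fell with them, with 9 of 9 called lower in both genotypes and a sum of 13170 to 30430 CPM at WT D0, 4305 to 12860 at WT D7, 13910 to 40530 at Trem2-/- D0 and 4091 to 6587 at Trem2-/- D7, and their part in these changes was not tested. Timp4 had the largest fall, from 36.8 to 98.3 CPM at WT D0 to 11.1 to 17.3 CPM at WT D7 and from 36.9 to 136 CPM to 9.37 to 14.3 CPM in Trem2-/- mice, by 2.08 and 2.54 on the log2 scale.

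Mmp11, Mmp12, Mmp16 and Mmp28 rose in both genotypes and Mmp17 in WT, at low levels. Mmp16, a membrane-anchored relative of Mmp14, was at 1.10 to 3.70 CPM at WT D0 and 4.52 to 8.77 CPM at WT D7, and rose by 1.34 in WT and by 1.86 in Trem2-/- mice on the log2 scale. Mmp12, the macrophage elastase, rose by 1.27 and 1.65, and Mmp11, a stromal MMP, by 1.06 and 1.90. Mmp15 and Reck, a membrane-bound MMP inhibitor, were not called in either genotype. None of the 11 was called between genotypes at either day or in the interaction.

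**Figure D4:**
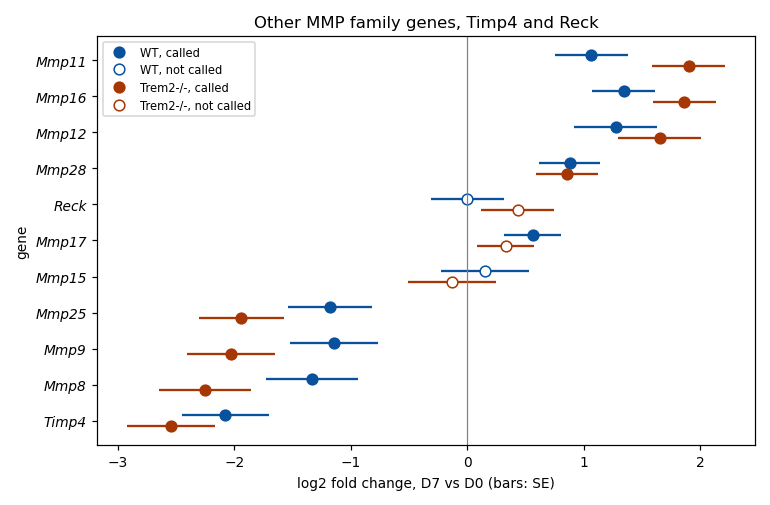
Log2 fold changes D7 vs D0 of the 11 tested MMP family genes outside the 9 members, Timp4 and Reck included, in WT and Trem2-/- mice, with bars for the SE and filled points for called genes. Mmp8, Mmp9, Mmp25 and Timp4 lie below 0 and Mmp11, Mmp12, Mmp16 and Mmp28 above 0 in both genotypes.

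Genes around the proteases were counted from lists, beside shares over all genes of 19.3% higher and 18.2% lower in WT. In Trem2-/- mice these shares were 26.5% and 27.9%. Of 16 matrix substrates 15 were called higher at D7 in each genotype, all but Dcn, and 0 lower, with a median log2 fold change of 2.48 in WT and 4.11 in Trem2-/- mice. The largest rises were those of Col2a1 (4.45 and 5.65), the collagen of cartilage, Acan (3.74 and 4.88), its main proteoglycan, and Col10a1 (3.27 and 5.13), the collagen of hypertrophic cartilage. Of 17 genes of MMP activation and clearance 7 were called higher and 4 lower in each genotype. The highest rise was that of Ctsk, the collagen-degrading cysteine protease (1.44 and 2.78), and the largest fall was that of Hpn (-1.02 and -1.24), a membrane serine protease. Of 15 ADAM and ADAMTS proteases, relatives that TIMPs also bind, 6 were called higher and 1 lower in each genotype. Adam12 rose by 3.33 in WT and 5.27 in Trem2-/- mice and Adamts12 by 2.46 and 2.92, while Adam8 fell by 0.69 and 1.59. The aggrecanases Adamts4 (-0.20 and -0.02) and Adamts5 (0.51 and 0.70) were not called.

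Of 22 inducers of MMP transcription, cytokines, their AP-1 and other transcription factors and matrix receptors, 3 were called higher and 7 lower in WT, and 4 and 9 in Trem2-/- mice, with median log2 fold changes of -0.25 and -0.28. The shares over all genes were 19.3% higher and 18.2% lower in WT, and 26.5% and 27.9% in Trem2-/- mice. In WT the largest falls were those of the cytokines Il6 (-1.16) and Osm (-1.11) and of the transcription factor Cebpb (-1.065), and in Trem2-/- mice those of Osm (-1.83), Il1b (-1.66) and Cebpb (-1.39). The collagen receptor Ddr2 rose by 0.95 and 1.19, and the growth factor receptor Fgfr1 by 1.35 in Trem2-/- mice. The AP-1 subunit Fos was at a mean of 1548 CPM at WT D0 and 1544 CPM at WT D7.

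Cell type markers moved with injury beside the members, where 19.3% of all genes were called higher and 18.2% lower in WT. In Trem2-/- mice the shares over all genes were 26.5% and 27.9%. Of 11 synovial fibroblast markers limma called 8 higher in WT and 9 in Trem2-/- mice and 0 lower. Their sum was 10150 to 43390 CPM at WT D0, 65520 to 100400 at WT D7, 7721 to 16690 at Trem2-/- D0 and 72770 to 116300 at Trem2-/- D7. WT D0 replicate 4 was the highest uninjured library for this sum, as it was for every member but Timp3. Of 10 chondrocyte markers 9 were called higher and 0 lower in each genotype, of 5 osteoblast markers 4 higher and 0 lower, and of 6 osteoclast markers 3 higher in WT and 5 higher and 1 lower in Trem2-/- mice. The 6 general leukocyte markers were all called lower in each genotype, as were 4 of 4 B cell and 4 of 4 erythroid markers, and 0 of 6 endothelial markers were called. Of 8 macrophage markers 5 were called higher and 1 lower in WT and 5 and 2 in Trem2-/- mice. Skeletal muscle markers were called lower for 2 of 6 in WT and 5 of 6 in Trem2-/- mice. No marker that was listed was at 0 in a library except Matn1 of chondrocytes at Trem2-/- D0.

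When the mean log2 level of the fibroblast list was added to the fit as a covariate, an alternative chosen after the data were seen, Mmp19 still rose in both genotypes, by 1.24 in WT and 1.31 in Trem2-/- mice by the rule. Mmp2 was then at 0.19 and 0.61 and Timp1 at 0.48 and 0.52, none of them called. Mmp13 and Mmp3 were lower at WT D7 than at WT D0 in that fit, with differences of -2.86 and -1.98 that were called. The same fit called Mmp14 higher (1.38) and Timp3 (-1.22) and Mmp3 (-2.11) lower in Trem2-/- mice, and no member passed adjustment in it. Because the fibroblast list itself changed with injury in both genotypes, its level and the injury cannot be told apart in these libraries.

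**Figure D5:**
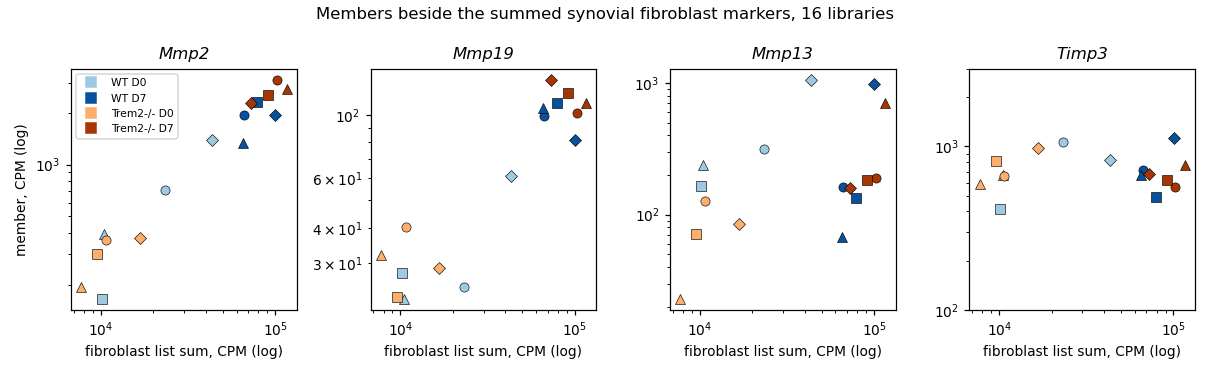
CPM of Mmp2, Mmp19, Mmp13 and Timp3 against the summed CPM of the 11 synovial fibroblast markers, both on log axes, 1 point a library coloured by group, with the replicate symbols of the plot of levels. The D7 libraries lie at 65520 CPM of the list or more and the D0 libraries at 43390 or less, and WT D0 replicate 4 is the D0 library nearest to D7 for the list, Mmp2 and Mmp19.

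Genes whose pattern was most like that of each member were named by Pearson's r of log2(CPM + 1) over the 16 libraries, among 10552 genes whose mean reached 5 CPM. The 16 points fall into an uninjured and an injured set, and share depth and cell makeup with one another, so r describes likeness only. They were Gpx8 (r = 0.997) and Fndc1 (0.995) for Mmp2, Angptl2 (0.997) and C1qtnf6 (0.996) for Mmp14, Angptl1 (0.992) and Fndc1 (0.991) for Mmp23, Nupr1 (0.995) and Pmepa1 (0.992) for Timp1, and Numbl (0.985) and Ubtd2 (0.984) for Timp2. For Mmp19 they were Mif (0.980) and Lrrc59 (0.977). Lower values were reached by Mmp3, with Efna5 (0.968) and Fgf18 (0.944), by Mmp13, with Ptprd (0.938) and Slit2 (0.924), and by Timp3, with Epha2 (0.929) and Prosc (0.917). Between members r was highest for Mmp2 with Mmp14 (0.991).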

How the data were processed

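Bulk RNA-seq of knee joint cells was analysed for 16 mice, 4 at D0 and 4 at D7 for each genotype, grouped by the genotype and injury state in the labels. The authors aligned reads to mm10 with STAR, counted them with featureCounts and deposited signal values, CPM scaled with edgeR's TMM method. The annotation, the strand setting and the tool versions are not given in the sources used here. All deposited values (100%, tolerance 0.02) were whole multiples of the value of 1 read in their library, so reads were recovered, and edgeR on those reads called 5025 genes for D7 vs D0 in WT against 4933 with limma. Counts of replicates differed by more than sampling noise in each pair (chi-square per degree of freedom of 10.4 or more). Nothing in the labels says how replicates were collected, so p-values measure the spread between these samples.

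Differences were computed with limma 3.58.1 in R 4.3.3 (lmFit, eBayes with trend) on log2(CPM + 1) for genes reaching 1 CPM in 4 or more libraries, with the 4 groups as one factor. A fold change on this scale understates that of low genes. The script was checked on simulated counts with known changes. Those counts had less spread between replicates than many members here, so the check covers the code and not the error rates in these data. Levels per kilobase used exon lengths of GENCODE M21 (GRCm38). The members and the 16 gene lists were chosen with earlier results of these data known. Named genes were the 9 members, every tested gene of the family list, for the other pathway lists up to 3 per list and direction with the largest changes among those called, and 2 genes per member by likeness. Dcn, Adamts4, Adamts5, Fos and the marker genes of the tissue check were named in addition, after their values were seen. The alternatives were pseudocounts of 0.1 and 5, no filter or a mean of 5 CPM or more, median-of-ratios and quantile scaling, a fit of the compared groups alone, eBayes without trend, a replicate block, each library left out, edgeR 4.0.16 and voom on recovered reads, and, added after the data were seen, leaving out both WT libraries numbered 4 and a fibroblast score as covariate.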

Additional observations from a re-analysis of the deposited data

Results flagged for a closer look

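In 36 groups of 4 CPM values (9 members in 4 groups), 6 had a library whose gap to the nearest other library exceeded Dixon's 95% limit for 4 samples, as a share of the range. Chance gives about 1.8 for independent, normally distributed values. The groups share the same 16 libraries and CPM need not be normal, so the flags describe the values and do not test for an excess. Mmp13 had 3 of them. Replicate 4 was highest at WT D0 (gap 0.8301 of the range, 1059 CPM against 165 to 317 CPM in the others) and at WT D7 (0.897, 986 CPM against 68.2 to 162 CPM), and replicate 3 was highest at Trem2-/- D7 (0.948, 707 CPM against 159.9 to 188 CPM). Mmp3 was highest in the same WT D7 replicate 4 (0.929, 153 CPM against 36.2 to 44.5 CPM). Mmp19 was highest in WT D0 replicate 4 (0.865, 60.9 CPM against 22.4 to 27.6 CPM), and Timp2 was lowest in Trem2-/- D0 replicate 3 (0.970, 349 CPM against 656 to 665 CPM).

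The interaction term of limma had an unadjusted p under 0.05 for 3 members. The change with injury was larger in Trem2-/- than in WT mice by 2.71 for Mmp13, 1.61 for Mmp14 and 0.93 for Timp2 on the log2 scale. The Timp2 call was lost in 14 of 28 alternatives and that of Mmp13 in several, while that of Mmp14 held in all of them. None passed adjustment over all genes (limma adjusted p from 0.579 to 0.610).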

How the results depend on the processing

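Results were recomputed under 29 alternatives, those of the interaction under 28, since a fit of only the groups compared gives none. Of the values of single members 1209 counted as unchanged, 54 lost the call, 19 gained one, 10 uncalled values moved and 4 reversed. Unchanged values kept their side of the threshold and their direction, except uncalled ones that changed sign by less than their SE. Moved values were uncalled and changed sign by their SE or more. Reversed ones changed sign and were called in at least 1 of the fits compared. The 4 reversals arose with the fibroblast score as covariate, Timp2 in WT (-0.32), Mmp3 in WT (-1.98), Mmp13 in Trem2-/- mice (-1.22) and Mmp3 in Trem2-/- mice (-2.11). With that covariate 3 members were called for D7 vs D0 in WT, Mmp19 higher and Mmp13 and Mmp3 lower (14.8% of all genes in either direction). In Trem2-/- mice 4 were called, Mmp14 and Mmp19 higher and Timp3 and Mmp3 lower (20.9% of all genes). After adjustment 0 were called in either genotype. The same fit called 1 each for Trem2-/- vs WT at D7 (Timp2) and at D0 (Mmp13) and in the interaction (Mmp14). Fitted on only the groups compared, 4 members were called at D7 between genotypes (3.58% of all genes higher) and 1 at D0 (0.638% lower). With edgeR 4 were called lower at D0 (Mmp2, Mmp14, Timp1 and Mmp13; 2.71% of all genes), and without both WT libraries numbered 4 there was 1 (Mmp13; 0.509%). Leaving out single libraries gave 0 to 1 members called between genotypes at D7 (1 without WT D0 replicate 2, Timp2, or WT D0 replicate 4, Mmp23), 1 to 5 at D0 and 1 to 6 for the interaction, with the highest counts without WT D0 replicate 2, where 6.70% of all genes were called lower at D0 and 8.87% higher in the interaction. The cause of these differences was not tested.

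The labels do not say whether replicate numbers pair the samples. Over 24 pairs of groups and numbers the correlation of deviations from the group mean ran from -0.509 to 0.406, and 7 of 16 libraries correlated best with their own number. Same-number libraries of WT D7 and WT D0 correlated at 0.0458, 0.203, 0.406 and 0.306. These values do not decide whether the numbers pair the samples. With the replicate number as a block 6 members were called for D7 vs D0 in WT, 8 in Trem2-/- mice, 0 between genotypes at D7, 2 at D0 and 3 in the interaction, the counts without it, and 8 instead of 7 passed adjustment in Trem2-/- mice, Mmp3 being added. Over all genes, Trem2-/- vs WT at D7 had 20.7% of called genes higher, against 33.3% with quantile normalization.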

Other observations

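Mmp27, the remaining listed gene of the MMP family, did not pass the filter and was not tested. It was at 0.436 to 1.00 CPM at WT D0, 0.170 to 0.594 CPM at WT D7, 0.505 to 1.73 CPM at Trem2-/- D0 and 0.0560 to 0.336 CPM at Trem2-/- D7.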
